A study of Mus musculus with 6 samples.

Results

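Membrane peptidases of the intestinal brush border were described as a group of 9 genes, out of 22180 genes that had a transcript cluster with exactly 1 symbol on the array. They were taken as a named list, Anpep, Enpep, Dpp4, Naaladl1, Ace, Cpm, Mme, Mep1a and Mep1b, and each was represented by its single cluster. Cpm, which encodes carboxypeptidase M, was 2.02-fold higher in mice lacking HNF4A in the intestinal epithelium (log2 difference 1.01, 95% interval 0.73 to 1.29). It was called at an adjusted p under 0.10 in a limma fit over clusters with exactly 1 symbol, where 0.208% of clusters were called higher, and was not called in the fit over all clusters, from which the interval comes and where 0.0121% were called. The other 8 genes differed by 1.01- to 1.17-fold, and none of them was called in either fit.

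The jejunum was taken from adult mice after 12 weeks of high-fat feeding (HFD), and total RNA was made from the tissue as a whole. HNF4A mutants (n = 3) carried Hnf4a loxP/loxP alleles and a Villin promoter Cre transgene, which drives recombination in the intestinal epithelium only, on a C57BL/6 background. Controls (n = 3) were bred in the same crosses and fed the same diet, and neither their alleles nor the sex of the mouse behind each array was stated. Each mouse gave 1 Affymetrix array, with values as log2 signals after the robust multi-array average (RMA).

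Array medians ranged from 5.53 to 5.58 on the log2 scale. The Hnf4a signal was 9.11 to 9.49 in mutants and 10.57 to 10.74 in controls, so it was lower in all mutants. It stayed above the background defined below. By RT-qPCR and immunolabelling, the study found no detectable Hnf4a transcript or protein in mutant jejunum on this diet. Why an array signal remained was not tested, and it does not show that intact transcript was present. The signal of the paralog Hnf4g was 12.17 in mutants and 12.13 in controls. Of 11 enterocyte markers, all 11 were above background, which does not place the tissue along the intestine. Background was taken as 5.43, the level below which 95% of olfactory receptor genes lay in control arrays. Differences of these 11 markers ran from -0.16 (Vil1) to 0.07 (Apob), and their mean, relative to the control mean, lay between -0.04 and 0.04 in controls and between -0.06 and 0.03 in mutants. Fabp6 and Slc10a2, typical of the distal small intestine, varied between arrays of both groups. Fabp6 lay at 9.85 to 10.46 in controls and 8.53 to 10.46 in mutants, and Slc10a2 at 7.03 to 9.06 and 7.42 to 8.62. Of 4 distal markers, 3 differences were above 0 and 1 below, and limma called 0. Of 5 proximal markers, 2 were above 0 and 3 below, and limma called 0 in either fit. Gata4 lay at 8.33 to 8.61 in controls and 8.25 to 8.49 in mutants. Slc40a1 was higher in all mutants (6.38 to 6.88 against 5.87 to 6.16, difference 0.63). Onecut2 was lower in all mutants (6.33 to 6.51 against 6.61 to 6.92, difference -0.30). Groups did not overlap for 14.3% of clusters with 1 symbol.

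Peptides left by pancreatic proteases are shortened at the microvillus surface of enterocytes before amino acids, dipeptides and tripeptides are taken up. The enzymes that do this are anchored in the membrane with the active site facing the lumen, and most of them are zinc metallopeptidases. Aminopeptidases trim peptides from the amino end, carboxypeptidases from the carboxyl end, dipeptidyl peptidases release pairs of residues, and endopeptidases cut inside the chain. Several also act on hormones such as angiotensins, incretins and kinins. HNF4A and HNF4G are nuclear receptors known to activate genes of differentiated enterocytes.

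The promoter of Cpm is shown because Cpm was the member that differed. The window covers 250 bases before and 50 after the annotated start (RefSeq, GRCm38.p6, chr10:117629250-117629549, plus strand), and capitals mark the letters AGGTCA, which nuclear receptors can recognise.
Cpm: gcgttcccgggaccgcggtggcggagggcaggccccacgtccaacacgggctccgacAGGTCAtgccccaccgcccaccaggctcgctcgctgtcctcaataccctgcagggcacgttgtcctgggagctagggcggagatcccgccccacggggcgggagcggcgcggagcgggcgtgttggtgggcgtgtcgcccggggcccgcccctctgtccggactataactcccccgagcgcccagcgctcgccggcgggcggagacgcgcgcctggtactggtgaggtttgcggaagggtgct
These letters began 193 bases before the start and was found, on either strand, in 16.3% of 32851 promoter windows of the same length. A window was searched for 7 of the 9 genes (10 windows, since Mme and Ace have several starts), and not for Mep1b and Naaladl1. Besides Cpm, only 1 of the windows, at the downstream start of Ace, held AGGTCA. The longer letters CAAAGTCCA, typical of HNF4 (0.475% of all windows), and AGGTCANAGGTCA, a direct repeat that contains AGGTCA (0.0396%), were found in 0 of these 10 windows. A match of letters is a description and says nothing of binding.

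Carboxypeptidase M removes lysine or arginine from the carboxyl end of peptides, kinins among them, and is held in the membrane by a glycolipid anchor. Its gene lies on chromosome 10 (117629500 to 117687352, GRCm38). The Cpm signal was 7.04, 6.96 and 7.25 in controls 1, 2 and 3, and 7.98, 8.20 and 8.12 in mutants 1, 2 and 3. The lowest mutant was thus above the highest control by more than the range within either group. The group means were 8.10 ± 0.11 in mutants and 7.08 ± 0.15 in controls (SD, n = 3), and all 6 values were above the background of 5.43.

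The test of Cpm differed between the fits, which differ both in the clusters that set the moderation and in those adjusted over. Among the 23521 clusters with exactly 1 symbol, Cpm rose, with an adjusted p of 0.0173 (limma, Benjamini-Hochberg), and ranked 9 by p. Of those clusters, 0.208% were called higher and 0.264% lower, against 1 of 9 peptidases higher and 0 lower. Over all 41345 clusters on the array, unnamed ones included, Cpm had an adjusted p of 0.182 in limma and did not pass the threshold of 0.10. In that fit 0.0121% of clusters and 0 of 9 peptidases were called, and an unadjusted p under 0.05 was reached by 1 peptidase, Cpm, and by 7.08% of clusters. Leaving out control 1 or mutant 2 moved the adjusted p of Cpm among clusters with 1 symbol to 0.106 and 0.104 in limma, with differences of 0.99 and 0.96, and the other arrays left it between 0.0285 and 0.0591. Cpm is on a list of changed genes that the study drew from these same arrays and was known to differ when the group was drawn up, so its call is not independent evidence.

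**Figure D1:**
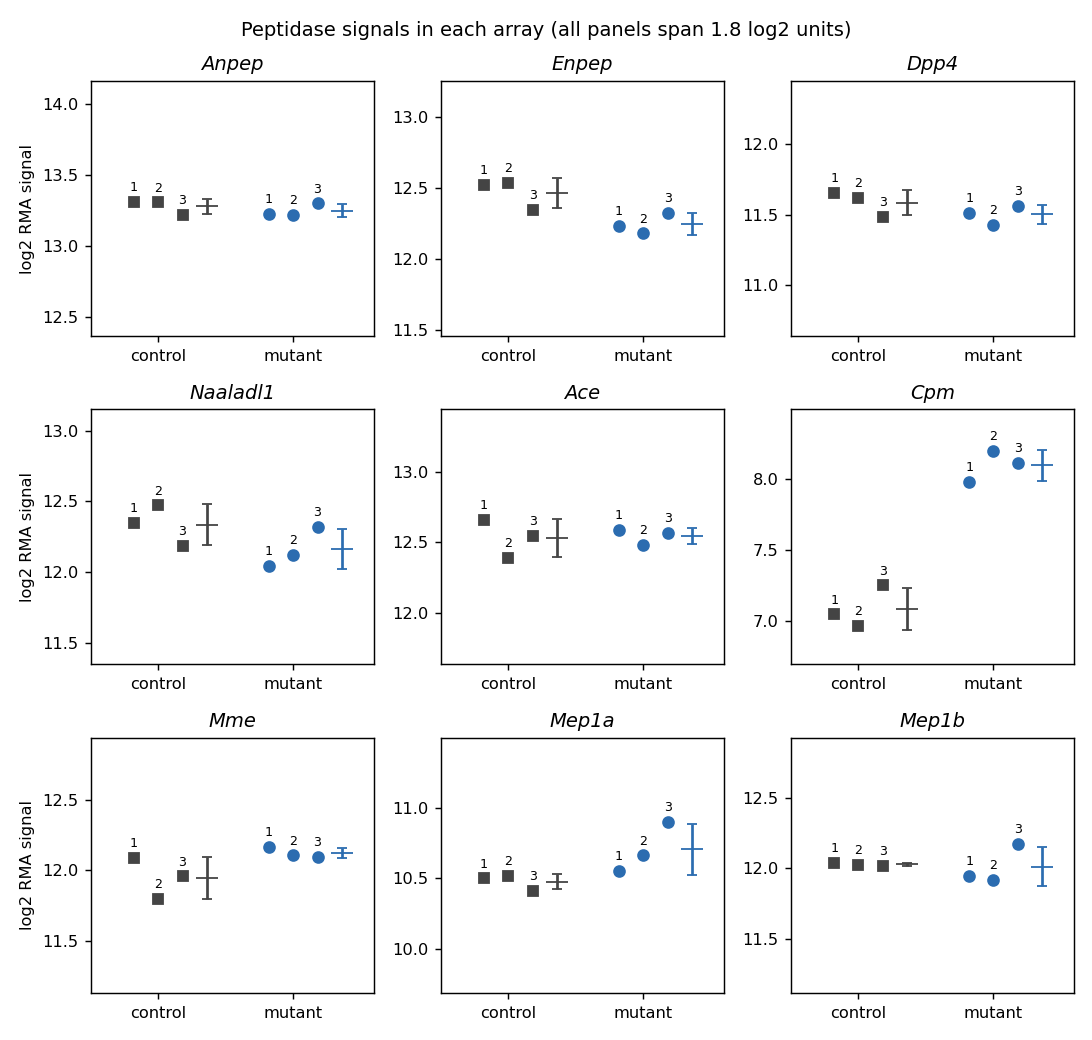
Log2 RMA signal (vertical axis) of each peptidase in the 3 control arrays (squares) and 3 mutant arrays (circles), numbered by array, with the group mean and SD at the right of each group. Every panel spans the same number of log2 units, and the groups are far apart for Cpm, at 7.08 against 8.10, and close or overlapping for the other 8 genes.

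Cpm is also expressed by macrophages, so markers of other cells were set beside it. In whole tissue, a change in the number of cells of a type and a change in RNA per cell cannot be told apart. Of all genes, 47.3% had a difference below 0, and 7.08% of all clusters reached an unadjusted p under 0.05 in limma. No such share is given for the fit over clusters with 1 symbol, so counts from that fit have no background beside them. All 9 macrophage markers lay above 0 (median 0.24), and limma called 0, with 0 at an unadjusted p under 0.05 over all clusters and 3 (Cd68, Csf1r and Cd14) among clusters with 1 symbol. Their mean relative to controls was -0.28 to 0.24 in controls and 0.14 to 0.39 in mutants, where control 3 alone reached the mutant range. All 7 goblet cell markers lay above 0 as well (median 0.33, 0 called by limma, 4 at an unadjusted p under 0.05 in either fit), with a mean of -0.12 to 0.11 in controls and 0.28 to 0.35 in mutants, so these groups did not overlap. The 7 fibroblast markers were all above 0 too (median 0.26, 0 called by limma, 2 at an unadjusted p under 0.05 in either fit), with a mean of -0.27 to 0.18 in controls and 0.19 to 0.37 in mutants, again with no overlap but with control 2 next to mutant 3. Only in the lists of these cell types did every marker lie above 0, and the other cell lists were mixed or lower. Above 0 were 3 of 5 Paneth cell markers, 3 of 5 crypt and cycling cell markers and 2 of 5 B and plasma cell markers. The same held for 3 of 8 smooth muscle and pericyte markers and 3 of 6 pancreatic acinar markers, with 0 called in each of these lists. The part of any cell type in the Cpm difference was not tested.

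No other gene of the carboxypeptidase family was called. In the list of metallocarboxypeptidases, 13 of 15 genes were measured, 6 of them above background, and 0 were called in either limma fit, with 0 at an unadjusted p under 0.05. Their differences ran from -0.19 to 0.20 (median -0.09), where the median over all genes was 0.01. Carboxypeptidase E (Cpe), which trims prohormones in endocrine granules, stood at 8.06 in mutants and 8.25 in controls. Carboxypeptidase D (Cpd), which works in the secretory pathway with a specificity like that of carboxypeptidase M, stood at 9.13 and 8.94. Cpa5, of the digestive carboxypeptidase A type, was below background in both groups (4.07 and 3.87).

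The genes whose profile over the 6 arrays lay nearest to that of Cpm were Ildr1, R3hdml and Ret. Nearness was the root mean square difference of the log2 values after each gene was centred on its own mean, among genes above background in controls. Ildr1, which encodes a protein of tricellular junctions, differed from the Cpm profile by 0.068. It stood at 5.68, 5.76 and 6.04 in controls and at 6.69, 6.82 and 6.81 in mutants. R3hdml (0.071) and Ret, a receptor tyrosine kinase (0.122), had differences of 0.995 and 0.96. Nearness was measured over both groups, so a difference like that of Cpm was built into the choice. As with Cpm, mutant 1 was the lowest mutant for all 3 genes, whereas control 3 was the highest control for Ildr1 and R3hdml and control 1 for Ret.

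Aminopeptidases differed little. Anpep encodes aminopeptidase N, which removes neutral residues and is a main surface peptidase of enterocytes. Its signal was 13.31, 13.31 and 13.22 in controls and 13.23, 13.22 and 13.30 in mutants. These groups overlapped fully, and the difference was -0.029 (95% interval -0.24 to 0.18). The spread of Anpep between arrays was also small, with a residual SD of 0.048, at or above that of 3.12% of clusters with 1 symbol. Anpep was among the brightest clusters of the array, and whether its signal was compressed there was not tested.

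Enpep encodes aminopeptidase A, which removes acidic residues and converts angiotensin II (chromosome 3, 129269177 to 129332749). It stood at 12.52, 12.54 and 12.35 in controls and at 12.23, 12.18 and 12.33 in mutants. Each mutant was below each control, but mutant 3 and control 3 were only just apart. The difference of -0.22 (SE 0.10, 95% interval -0.46 to 0.02) did not pass, with an adjusted p of 0.727 over all clusters and 0.561 among clusters with 1 symbol (limma).

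Peptidases that release pairs of residues, or act on acidic peptides, did not pass either. Dpp4 encodes dipeptidyl peptidase 4, which cuts after proline or alanine and inactivates the incretins GIP and GLP-1. It ranged from 11.49 to 11.65 in controls and from 11.43 to 11.56 in mutants, with overlapping groups and a difference of -0.08 (95% interval -0.31 to 0.15). Naaladl1, a relative of glutamate carboxypeptidase II on the intestinal epithelium, ranged from 12.19 to 12.47 in controls and from 12.04 to 12.32 in mutants. Its difference was -0.18 (95% interval -0.46 to 0.11), again with overlapping groups, and it was -0.11 without control 2 and -0.12 without mutant 1. Ace encodes angiotensin-converting enzyme, which removes dipeptides from the carboxyl end of angiotensin I and of dietary peptides. Its mutant values, 12.48 to 12.59, lay within those of the controls, 12.39 to 12.66, and the difference was 0.014 (95% interval -0.24 to 0.26).

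Some of these genes are expressed outside enterocytes, so markers of such cells were set beside them. Dpp4 is known as a surface protein of T cells. Of 12 T and NK lymphocyte markers, 11 lay below 0 (median -0.46), and limma called Ccl5, Cd7, Gzmb and Gzma lower among clusters with 1 symbol and 0 of the 12 over all clusters, where 7 were lower at an unadjusted p under 0.05. Their mean relative to controls was -0.05 to 0.08 in controls and -0.60 to -0.41 in mutants, while Cd2 was below background in both groups and Cd3d in mutants only. Dpp4 and Anpep are also present in liver. All 8 hepatocyte markers lay below 0 (median -1.82), and limma called Alb, Ttr and Cyp2e1 lower among clusters with 1 symbol and 0 of the 8 over all clusters, where 7 were lower at an unadjusted p under 0.05. The mean of the 8 was -0.89 to 0.48 in controls and -2.11 to -1.39 in mutants, and 6 were above background in controls against 4 in mutants. Ace is also made by endothelium, where 7 of 8 markers lay above 0 (median 0.06, 0 called) and the mean was -0.05 to 0.07 in controls and 0.05 to 0.10 in mutants. The part of these cells in the peptidase values was not tested.

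No endopeptidase gene passed the test. Mme encodes neprilysin, which cuts on the amino side of hydrophobic residues (chromosome 3, 63295211 to 63383713). It stood at 12.09, 11.80 and 11.96 in controls and at 12.16, 12.11 and 12.10 in mutants. The groups did not overlap, yet mutant 3 and control 1 differed by less than the spread among controls. The difference was 0.17 (SE 0.11, 95% interval -0.08 to 0.43, adjusted p = 0.801 over all clusters and 0.686 among clusters with 1 symbol, limma), and it was 0.097 without control 2.

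Mep1a and Mep1b encode the alpha and beta subunits of meprin, a zinc endopeptidase that cuts proteins and large peptides in the lumen and in mucus. Mep1a (chromosome 17, 43474324 to 43504143) stood at 10.50, 10.52 and 10.41 in controls and at 10.55, 10.66 and 10.90 in mutants. All mutants were higher than all controls, but mutant 1 was close to the controls and the mutants covered 0.35 against 0.10 in controls. The difference of 0.23 (SE 0.12, 95% interval -0.05 to 0.51) did not pass, with an adjusted p of 0.753 over all clusters and 0.607 among clusters with 1 symbol (limma), and was 0.13 without mutant 3. Mep1b was 12.02 to 12.04 in controls and 11.92 to 12.17 in mutants, with a difference of -0.015 (95% interval -0.26 to 0.23). Mutant 3 was the highest array for both subunits.

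**Figure D2:**
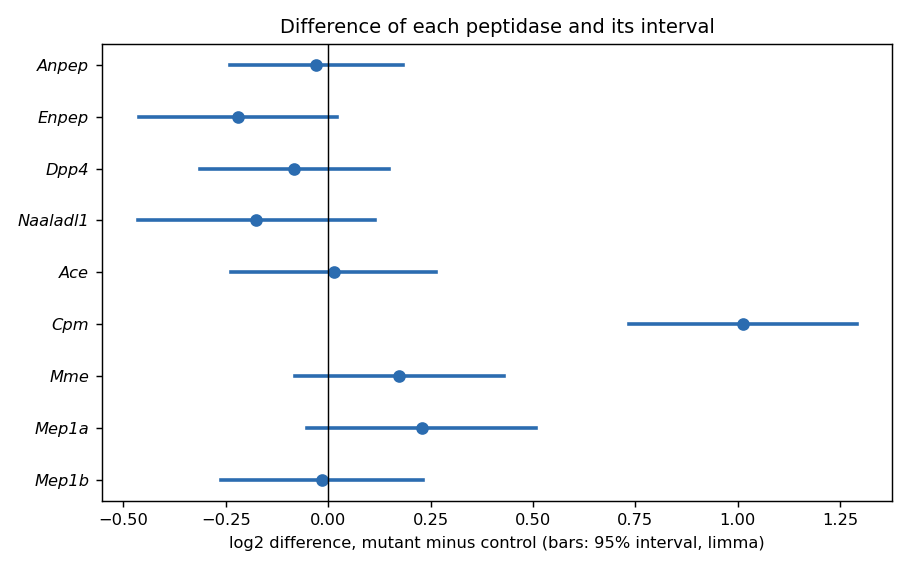
Log2 difference, mutant minus control (horizontal axis), of each peptidase (vertical axis). Points are limma estimates over all clusters and bars are 95% intervals, which include 0 for 8 genes and lie between 0.73 and 1.29 for Cpm.

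Among the 8 genes other than Cpm, 3 differences were above 0 and 5 below (median -0.022). With Cpm, 5 of 9 were below 0, where 47.3% of all genes were. Groups did not overlap for 4 of the 9 (Cpm, Enpep, Mme and Mep1a), against 14.3% of clusters with 1 symbol. The widest bound in any of the 8 intervals was 1.42-fold, for Mep1a. In each array the mean of the 8, relative to controls, lay between -0.06 and 0.06 in controls and between -0.07 and 0.07 in mutants. On the same scale Cpm lay between -0.12 and 0.16 in controls and between 0.90 and 1.11 in mutants.

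Among other membrane peptidases, not all of them enterocyte genes, none was called in either limma fit. Of 23 other membrane peptidase genes, 20 were measured and 11 of these were above background. Their differences ran from -0.43 to 0.46 (median 0.08), and 2 higher and 2 lower had an unadjusted p under 0.05 over all clusters. Xpnpep2, the membrane aminopeptidase that frees residues before proline, was 9.76, 9.75 and 10.04 in mutants and 10.29, 10.37 and 10.17 in controls. Its groups did not overlap, and the difference of -0.43 (SE 0.12) had an adjusted p of 0.562 over all clusters and 0.272 among clusters with 1 symbol. The membrane serine proteases Tmprss2 and Prss8 differed by 0.37 and 0.46 (adjusted p = 0.602 and 0.664 over all clusters, limma). Enteropeptidase (Tmprss15), which activates trypsinogen in the duodenum, was below background in both groups (4.82 in mutants and 4.78 in controls).

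Some peptidases inside the cell finish the hydrolysis of absorbed peptides. A list of 25 genes of intracellular enzymes was used, and not all of them have that role. All 25 were above background, 14 lay below 0 and 0 were called (median -0.03), with 2 lower at an unadjusted p under 0.05. Those 2, Acy3 and Acy1, are aminoacylases, which split acetylated amino acids rather than peptides. Acy3 was 10.17, 9.82 and 10.14 in controls and 9.64, 9.28 and 9.40 in mutants, so all mutants were lower. Its difference of -0.60 (SE 0.15) had an adjusted p of 0.487 over all clusters and 0.172 among clusters with 1 symbol (limma). Acy1 differed by -0.23 and the aminopeptidase gene Rnpepl1 by -0.17 (adjusted p = 0.651 and 0.755, limma).

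**Figure D3:**
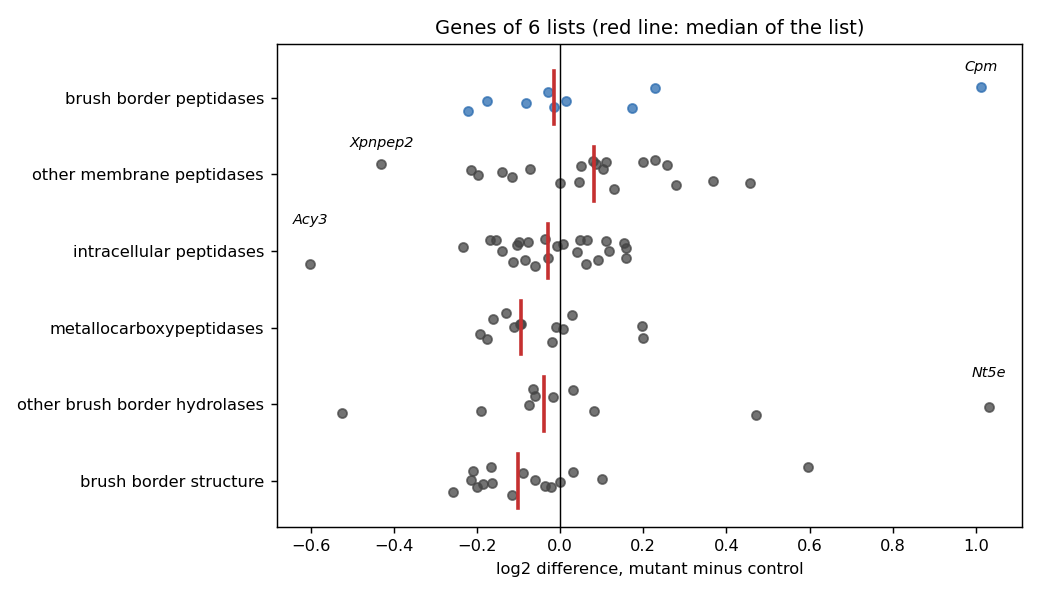
Log2 difference, mutant minus control (horizontal axis), of each gene (points) in 6 lists (rows), with the median of each list in red. Cpm (1.01) stands apart from the other brush border peptidases, Nt5e (1.03) is the far point among the hydrolases, and list medians lie between -0.10 and 0.08.

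Hydrolases and structural proteins of the same membrane were compared as well. All 10 other brush border hydrolases were above background, 6 lay below 0 and limma called 0 (median -0.04), with 2 higher at an unadjusted p under 0.05. Sis and Lct, the disaccharidases for sucrose and milk sugar, differed by -0.06 and 0.08. Nt5e, the ectonucleotidase CD73, was 9.09, 9.22 and 8.79 in controls and 9.20, 10.48 and 10.51 in mutants. Mutants 2 and 3 were high and mutant 1 lay among the controls, and the difference of 1.03 (SE 0.35) had an adjusted p of 0.633 over all clusters (limma). Enpp3, another ectonucleotidase, was 12.24 to 12.40 in mutants and 11.60 to 12.08 in controls (0.47, adjusted p = 0.594), and the alkaline phosphatase gene Akp3 was 5.47 and 5.99 (-0.52, adjusted p = 0.743, limma).

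Of 18 genes of microvillus structure, 16 were measured, 13 lay below 0 and limma called 0 (median -0.10), with 1 higher and 1 lower at an unadjusted p under 0.05. The scaffold gene Slc9a3r1 (NHERF1) was 11.39 to 11.50 in mutants and 11.65 to 11.68 in controls, and differed by -0.21 (adjusted p = 0.697 over all clusters, limma). Myo7b, a motor protein of the links between microvilli, differed by -0.26 (adjusted p = 0.709), and Tmigd1, an adhesion protein, by 0.60 (adjusted p = 0.697, limma) with mutant values of 8.73 to 9.27 and control values of 8.10 to 8.93.

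The order of the arrays within a genotype was compared between genes. For 6 of the 9 genes (Anpep, Dpp4, Enpep, Mep1a, Mep1b and Naaladl1), control 3 was the lowest control and mutant 3 the highest mutant. Such an order was seen in 14.1% of the 13576 genes above background, in 9 of 16 structural genes, in 5 of 10 other hydrolases, in 6 of 11 enterocyte markers, and in 8 of 25 intracellular peptidases. Mme and Ace followed another order, with control 1 the highest control, control 2 the lowest control and mutant 1 the highest mutant. Cpm followed neither, since control 3 was its highest control and mutant 2 its highest mutant. The order was picked from the values of these peptidases, so their count is a description only, some gaps were small (12.02 to 12.04 in the Mep1b controls), and with 1 array per mouse, variation between mice and between arrays cannot be told apart. Without the third array of each group, Enpep and Naaladl1 differed by -0.32 and -0.33, and Mep1a by 0.0986 (a setting chosen after the values were seen), while Cpm differed by 1.09.

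**Figure D4:**
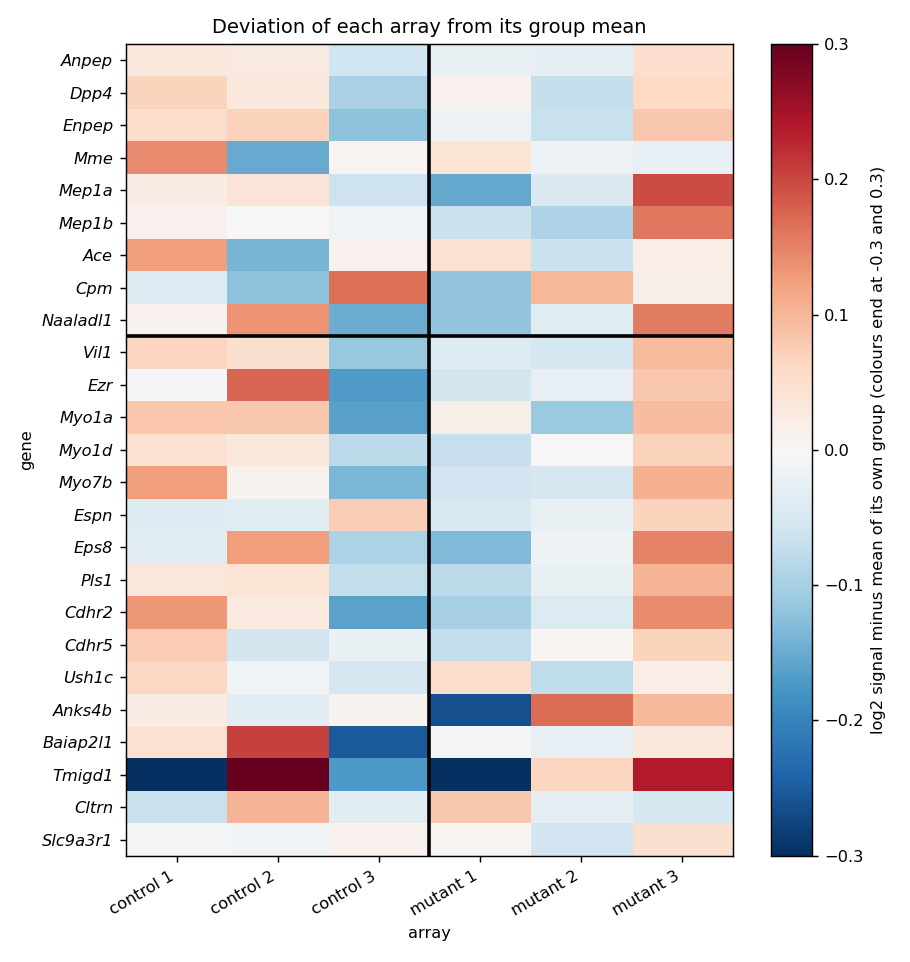
Deviation of each array from the mean of its own group (colour, log2 units), for the 9 peptidases (above the line) and 16 genes of microvillus structure (below the line), with controls left and mutants right of the vertical line. Control 3 is low and mutant 3 high for 6 of 9 peptidases and 9 of 16 structural genes.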

How the data were processed

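The data are 6 Affymetrix arrays, 1 per mouse, from 3 controls and 3 mutants. The deposited values are log2 signals that the authors made with RMA in the Transcriptome Analysis Console (background correction, quantile normalisation, probe summary per transcript cluster), per the labels, so a change in total RNA would be lost and signals of different genes are not on a common scale. The cluster identifiers belong to another Affymetrix design than the one the methods name, and the identifiers were followed. Genes were named from the platform annotation, with positions and promoters from RefSeq.

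Genotypes were compared with limma 3.58.1 in R 4.3.3 (empirical Bayes, two-sided) over all clusters, and again over clusters with exactly 1 symbol, with Benjamini-Hochberg adjustment and calls at an adjusted p under 0.10. Intervals come from the first fit, and the fits were tested on simulated data. An exact permutation test of 3 against 3 cannot go below 0.1, so none is given. The number of arrays limits the precision. No batch was named in the sources. The p-values rest on the spread between arrays, 1 per mouse, and on variance shared across clusters by the moderation.

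Members and lists were chosen with earlier results of these data known. Named genes were the members, Hnf4a, Hnf4g, up to 3 genes per list with the smallest p, and the 3 nearest profiles of called members. Genes named for another reason (Sis, Lct, Tmprss15, and markers that were called or set a range) were chosen after their values were seen. Alternatives covered clusters tested, a dim filter, normalisation, moderation, array weights, thresholds, a replicate block and left-out arrays.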

Additional observations from a re-analysis of the deposited data

How the results depend on the processing

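The Cpm difference was 0.95 to 1.09 in the alternatives that can move it (normalisation, array weights and left-out arrays), and those of the other genes kept their sign except Ace (-0.055 without control 2 and -0.0085 without mutant 1, up to 0.077 over left-out arrays) and Mep1b (0.017 without mutant 1 and 0.032 without mutant 2, down to -0.094 over left-out arrays). Each gene had 1 cluster, so the alternative of other clusters was not run. In the fit over all clusters, peptidases called went from 0 to 1 (Cpm) with clusters of 1 symbol only, with a dim filter (adjusted p = 0.0498) and with an intensity trend and robust prior (adjusted p = 0.0863, limma), and stayed at 0 when single arrays were left out. In the fit over clusters with 1 symbol the count went from 1 to 0 with unmoderated statistics, ranged from 0 to 1 over left-out arrays, and was 0 without the third array of each group (adjusted p = 0.124, limma), a setting chosen after seeing the data. The median difference of the 9 genes was -0.015, ranged from -0.055 to 0.032 over left-out arrays and was -0.084 without the third arrays.

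Over all clusters, 5 were called. This became 111 with 1 symbol only, 34 with the dim filter, 17 with the trend, 0 with unmoderated statistics, an adjusted p under 0.05 or the replicate block, 0 to 16 over left-out arrays, and 8 without the third arrays. Among clusters with 1 symbol, 111 became 208 with the dim filter, 190 with the trend, 0 unmoderated, 30 at an adjusted p under 0.05, 64 with the replicate block, 10 to 108 over left-out arrays and 14 without the third arrays. Same-numbered arrays did not deviate together (correlations of -0.108, -0.0065 and -0.051 across clusters), so the numbers only name arrays. The replicate block left Cpm called among clusters with 1 symbol (adjusted p = 0.0427, limma). Where no cause is given for a lost or gained call, the cause was not tested.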
